A study of Homo sapiens with 23 samples.

Results

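The regions described here carried an LSD1 peak in control SH-SY5Y cells at both sampled days, day 0 and day 3 of BDNF, and had no peak in the LSD1 list of LSD1+8a knockdown cells or in the LSD1+8a and SVIL lists. They were found by pooling the peaks of 5 lists, merging peaks that overlap by 1 bp or more, and keeping the merged regions with peaks from both control LSD1 lists and from none of the others. This left 4014 of 32188 regions (12.5%). They held 4084 of the 16882 day 0 peaks (24.2%) and 4026 of the 20748 day 3 peaks (19.4%). The regions were thus chosen by the measured presence or absence of peaks in these lists, so their counts and peak values describe them and are not tests.

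SH-SY5Y cells come from a human neuroblastoma and become neuron-like under retinoic acid followed by BDNF, a neurotrophin that supports neurons. Per the labels, all cells were on a protocol of 10 µM retinoic acid for 4 days followed by 50 ng/mL BDNF for 3 days without serum, and day 0 and day 3 mark the BDNF stage. The groups used were LSD1 ChIP in cells with a control shRNA at day 0 and at day 3, LSD1 ChIP in cells with an LSD1+8a shRNA at day 0, and LSD1+8a and SVIL ChIP in cells with a control shRNA at day 3. Each group is 1 library, so no difference between conditions has a replicate check or a test. How far LSD1+8a was lowered was not measured here, and the LSD1 antibody's reach over the 2 isoforms was not examined. The series has no LSD1 ChIP of knockdown cells at day 3, so the knockdown list speaks of day 0 alone. A region missing from a list is one where the authors' caller listed no peak, which is not the same as no binding.

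LSD1 (KDM1A) is a demethylase that removes methyl groups from histone H3, most often from lysine 4, within corepressor complexes built on CoREST and histone deacetylases. LSD1+8a is a splice form with a short extra exon that is made in neurons, and the series design names SVIL (supervillin), an actin-binding protein, as its cofactor. Peaks of a cofactor such as LSD1, which is brought to DNA by other proteins, mark where the complex sits and not a sequence that it reads itself. Positions are in the hg19 build, as in the deposited lists, and regions are named by position alone, since an hg19 annotation was not used here.

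The knockdown list was the shortest LSD1 list, with 10248 peaks against 16882 at control day 0 and 20748 at control day 3. Most regions with LSD1 at control day 0 lacked a knockdown peak (57.6% of 16655), and so did most with LSD1 on both control days. Of 8277 regions of both days, 4584 (55.4%, exact 95% binomial interval 54.3 to 56.5) were missing from the knockdown list, a slightly lower share. Removing those with an LSD1+8a or SVIL peak left the 4014 regions, 48.5% (47.4 to 49.6) of the regions of both days. Their number was 1751 with the upper 50% of each list by score, 2396 with the lowest SVIL score as limit for all lists, and 1089 with the upper 50% of the control lists alone. All intervals in parentheses here are exact 95% binomial intervals, and for medians exact 95% order-statistic intervals; they cover counting error over regions, which are not fully independent. Library depth and the input behind each list are unknown here. A shallower or differently controlled knockdown library therefore cannot be told apart from fewer LSD1-bound places.

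The shares with an LSD1+8a or SVIL peak of day 3 were lower at the regions missing from the knockdown list. Before regions with these peaks were removed, 382 of the 4584 regions missing from the knockdown list (8.33%, 7.55 to 9.17) had an LSD1+8a peak. Among the 3693 regions of both days that were in the knockdown list, 983 (26.6%, 25.2 to 28.1) had one. For SVIL the shares were 233 (5.08%, 4.46 to 5.76) and 351 (9.50%, 8.58 to 10.5). In all, 570 regions (12.4%) fell out of the set for an LSD1+8a or SVIL peak. Among regions without these peaks, those in the knockdown list had the higher day 0 LSD1 scores, as given next, and the part of score in these shares was not tested.

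The closest comparison is with the 2498 regions that were in all 3 LSD1 lists and likewise had no LSD1+8a or SVIL peak. At day 0, the strongest peak of the regions missing from the knockdown list had a median of 23 tags (quartiles 18 and 31, range 9 to 131). The regions in all 3 lists had a median of 36 day 0 tags (quartiles 27 and 50, range 10 to 278). The 2 sets overlapped widely but lay apart at day 0, with the regions missing from the knockdown list on the weaker side. The median day 0 score was 74.2 (73.1 to 75.6) against 113 (110 to 116), in a list whose lowest score was 50.0. The score is a deposited value whose column name was lost, used here to rank peaks within a list. The median day 0 peak was 799 bp long (790 to 807) against 969 bp (957 to 985). Fold enrichment at day 0 differed less, with medians of 8.88 (8.85 to 8.99) and 9.91 (9.70 to 10.1).

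At day 3 the same 2 sets were closer. The median number of day 3 tags was 59 (quartiles 42 and 84) for the regions missing from the knockdown list. It was 68 (quartiles 47 and 102) for those in all 3 lists. The median day 3 score was 108 (106 to 110) against 120 (115 to 124), and the median fold enrichment 17.8 (17.5 to 17.99) against 17.5 (17.1 to 17.9). The fold intervals overlapped, so the day 3 folds were not told apart. By score within each control list, the regions missing from the knockdown list stood at the 43.2 percentile at day 0. At day 3 they stood at the 59.8 percentile, both as medians. The regions in all 3 lists stood at the 72.1 and 65.1 percentiles. Regions of a single day had lower scores than either set in that day's list, with a median of 64.3 over the 4788 regions of control day 0 alone and 79.4 over the 10795 regions of day 3 alone. Fold enrichment did not follow this order at day 0, where the regions of that day alone had a median of 9.03 (8.99 to 9.14), no lower than the 8.88 of the set.

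**Figure D1:**
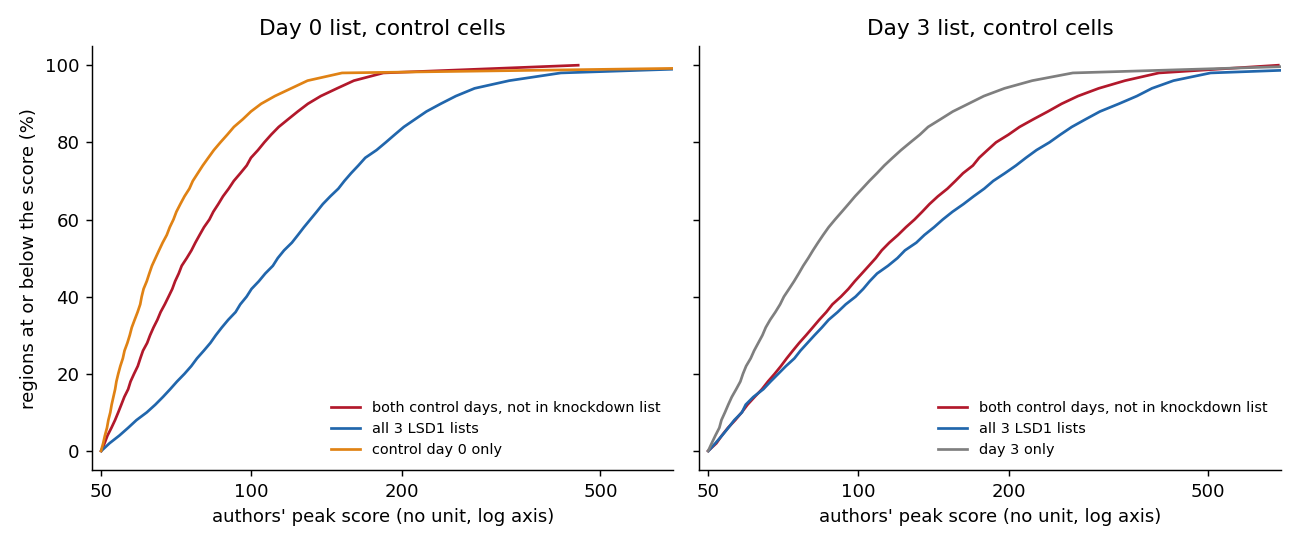
Cumulative share of regions (vertical axis, percent) at or below each authors' peak score (horizontal axis, no unit, log scale) in the day 0 list (left) and the day 3 list (right) of control cells. At day 0 the red curve of regions missing from the knockdown list has its median at 74.2 and the blue curve of regions in all 3 LSD1 lists at 113, while at day 3 they lie closer, at 108 and 120.

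Whether a region of both days was in the knockdown list followed its day 0 score. Among the 6512 regions of both days without LSD1+8a and SVIL, the share missing from the knockdown list was 81.3% (78.1 to 84.2) in the lowest decile of day 0 score. It was 68.7% (64.9 to 72.2) in decile 5 and 14.6% (11.95 to 17.5) in the highest. Among the 100 regions with the highest day 0 scores, 1 was missing from the knockdown list, and among the first 500 there were 64 (12.8%, 10.0 to 16.05). Day 0 tags gave the same order, with 91.3% (88.8 to 93.3) missing in the lowest decile of 9 to 15 tags and 16.6% (13.8 to 19.6) in the highest of 53 to 278 tags. By day 0 fold enrichment the share was 67.2% in the lowest decile, 69.6% in decile 5 and 30.5% (27.01 to 34.2) in the highest. The deciles between these were not computed for tags and fold.

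The day 3 score had a flatter relation. The share missing from the knockdown list stayed between 61.8% and 65.6% over the lowest 8 deciles of day 3 score and was 56.2% (52.3 to 60.1) in decile 9 and 45.2% (41.4 to 49.2) in the highest. In a 5 by 5 grid of both scores, the share moved by 7.82 to 14.7 percentage points across day 3 quintiles when the day 0 quintile was held. It moved by 52.4 to 58.4 points across day 0 quintiles when the day 3 quintile was held. In the strongest quintile at day 3 and weakest at day 0, 126 of 164 regions (76.8%, 69.6 to 83.1) were missing from the knockdown list. In the reverse corner, strongest at day 0 and weakest at day 3, it was 54 of 206 (26.2%, 20.3 to 32.8). The knockdown library is itself a day 0 library. At the 2498 regions in all 3 LSD1 lists, the medians in the knockdown list were 30 tags and a score of 84.8. The same regions had medians of 36 tags and a score of 113 at control day 0. Both the knockdown list and the control day 0 list end at a score of 50.0. The part of that lower limit in this relation was not tested.

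**Figure D2:**
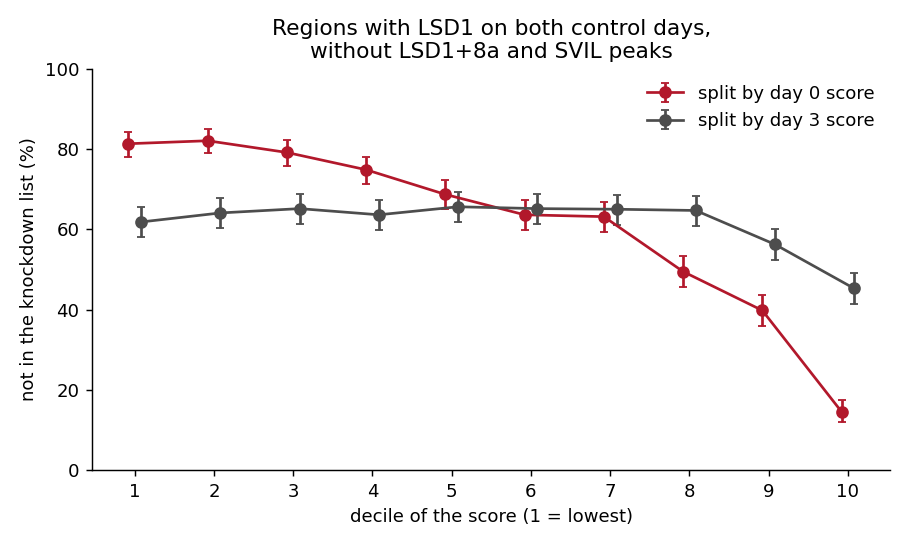
Share of the 6512 regions of both control days without LSD1+8a and SVIL that are missing from the knockdown list (vertical axis, percent) by decile of day 0 score (red) or day 3 score (grey), with exact 95% binomial intervals. The red points fall from 81.3% to 14.6%, while the grey points stay near 61.8% to 65.6% up to decile 8.

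**Figure D3:**
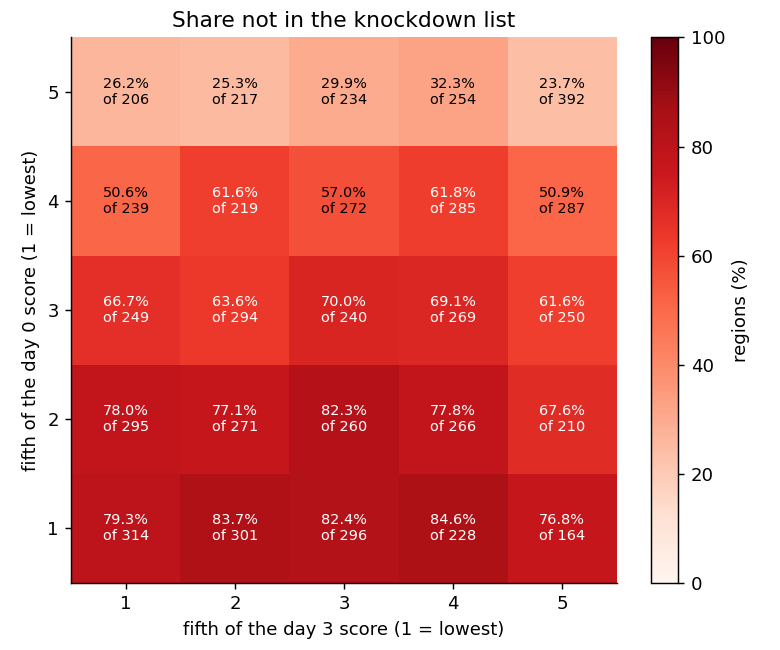
Share of regions missing from the knockdown list, as percent and color, by quintile of day 3 score (horizontal) and quintile of day 0 score (vertical), with the number of regions in each cell. The share changes from row to row, down to 23.7% in the top row, and little along a row.

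Scores of the 2 days were loosely related among the 4014 regions. Across them, Spearman's rho between the days was 0.142 for score and 0.435 for tags, as a description over regions that share their libraries and whose tags grow with peak length. For the regions in all 3 lists the values were 0.133 and 0.334. Of the 4014 regions, 1007 (25.1%, 23.8 to 26.5) were in the lower 50% of both lists by score and 27 (0.673%, 0.444 to 0.977) in the upper 10% of both. A further 209 (5.21%, 4.54 to 5.94) combined the upper 10% at day 3 with the lower 50% at day 0, and 20 (0.498%, 0.305 to 0.768) had the reverse. Close to the end of the list, 970 regions (24.2%, 22.8 to 25.5) had a day 0 score under 60.

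The summits of the 2 days lay close together within the regions. In 3935 of the 4014 regions each day gave 1 peak, in 66 day 0 gave 2 peaks within 1 day 3 peak's region, and in 10 it was the reverse. Over the 3935 regions, the day 0 and day 3 summits lay a median of 70 bp apart (67 to 73, quartiles 30 and 154), against 64 bp (60 to 68) over 2419 such regions in all 3 LSD1 lists. Summits within 100 bp of each other were found in 62.4% (60.9 to 64.0) and 63.9% (61.96 to 65.8), which overlap. Fragments of 300 to 800 bp, per the labels' protocols, limit how finely a summit can be placed. The day 0 summit fell inside the day 3 peak in 3891 of 3935 regions (98.9%).

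Day 3 peaks were the wider ones. The day 3 peak was longer in 3422 of the 3935 regions (87.0%, 85.9 to 88.0), and it contained the whole day 0 peak in 2511 (63.8%, 62.3 to 65.3). In the regions of all 3 lists these shares were 76.5% (74.7 to 78.2) and 50.5% (48.5 to 52.5). The median day 3 peak was 1131 bp long, close to the 1044 bp of the whole day 3 list, and the median day 0 peak of 799 bp lay near the 835 bp of the whole day 0 list. Peak width moves with depth and with the caller's settings, and their part was not tested.

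The strongest of these regions ranked well on both days. Taking for each region the worse of its 2 score ranks, the best was on chromosome 1 (210464110 to 210467314), with 76 tags at day 0 (rank 404, fold 14.5) and 243 tags at day 3 (rank 473, fold 20.8). It was in place 75 of all 8277 regions of both days by this measure, so 74 regions with a knockdown, LSD1+8a or SVIL peak came before it. Its nearest knockdown peak lay 277517 bp away and its nearest SVIL peak 35366 bp away. After it came one on chromosome 6 (1850023 to 1851614), with 57 and 142 tags and a SVIL peak 5001 bp away.

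The next, on chromosome 8 (93020220 to 93022105), had 71 tags at day 0 and 145 at day 3. It lay 9099 bp from a knockdown peak and 1283568 bp from the nearest LSD1+8a peak. On chromosome 6 (154413366 to 154416114), a region of 2749 bp had 50 and 223 tags, and its day 3 peak spanned the whole region while the day 0 peak covered 1092 bp of it. Regions on chromosome 13 (52359541 to 52361523, 64 and 170 tags) and chromosome 11 (36585926 to 36587485, 48 and 150 tags) followed. The chromosome 11 region had a second one near it at 36640768 to 36641624 with 32 and 72 tags, a narrow pair of peaks whose summits were 20 bp apart and whose day 3 fold of 58.2 was the highest of the first 25.

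The first 25 regions by this measure lay on 14 chromosomes. They had 32 to 78 tags at day 0 (median 48) and 59 to 243 at day 3 (median 142), with more tags at day 3 in all 25. Tags were higher at day 3 over the whole lists too, with medians of 50 against 26 at day 0. Lengths of the 25 ran from 677 to 3475 bp, with a median of 1683 bp against 1185 bp over all 4014. None was on chromosome 19, which held 1.67% of all 4014. Of the 25, 19 had a knockdown peak within 100 kb and 5 within 10 kb, where all 4014 had shares of 58.5% and 12.3%. The closest, on chromosome 18 (3622246 to 3622922), lay 874 bp from one. Among the first 1000 regions of both days by the same measure, 171 were missing from the knockdown, LSD1+8a and SVIL lists.

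Some regions were strong on a single day. They are named here after their values were seen, from the 5 best of the set in each control list. The best day 0 rank, 177, belonged to a region on chromosome 10 (29813201 to 29813960) which had a day 0 fold of 46.1 from 52 tags. Its day 3 peak had 27 tags at rank 9530, a SVIL peak lay 153 bp away, and the nearest knockdown peak was 210739 bp away. Between 29 and 30 Mb of chromosome 10 there were 4 regions of the set, with 28 day 0 peaks of control cells, 10 SVIL peaks and 3 knockdown peaks. The second day 0 rank, 374, was on chromosome 8 (36832393 to 36834009), with 54 tags at day 0 and 83 tags at rank 10398 at day 3.

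In the other direction, the best day 3 rank, 77, was on chromosome 15 (28234572 to 28236855). It had 208 tags at day 3 and 42 tags at rank 6265 at day 0. A region on chromosome 18 (58512986 to 58514152) had a day 3 fold of 124.02, the highest of all 4014, from 124 tags, and 19 tags at rank 8077 at day 0. Regions on chromosome 3 (155051678 to 155053796, 34 and 157 tags) and chromosome 10 (69971093 to 69972052, 23 and 153 tags) were of the same kind. Tags of the 2 days come from libraries of unknown depth, so a larger number at day 3 does not by itself mean more LSD1. The longest region, on chromosome 7 (8297420 to 8302581), spanned 5162 bp.

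By chromosome, these regions were spread over 1 to 22 and X, with none on Y. Chromosome 19 held 67 of the 4014 (1.67%, 1.30 to 2.11), against 3.75% of all regions in the 5 lists. In the regions of all 3 LSD1 lists it held 145 of 2498 (5.80%, 4.92 to 6.79), in those of control day 0 alone 4.99% (4.39 to 5.65), and in those of day 3 alone 1.29% (1.08 to 1.52). Its interval lay below those of the regions in all 3 lists and of day 0 alone, and met that of the regions of day 3 alone. Chromosome 13 held 3.94% (3.36 to 4.58), against 2.96% (2.33 to 3.70) in the regions of all 3 lists, 3.33% (3.00 to 3.69) in those of day 3 alone and 2.91% of all regions. Chromosome 22 held 1.17% (0.862 to 1.55), against 1.00% (0.649 to 1.47) in the regions of all 3 lists, and these intervals overlapped. Under the planned changes of processing the chromosome 19 share ran from 1.26% to 1.88%. With the upper 50% of both control lists by score and the other lists whole, a setting chosen after seeing the data, it was 0.826%.

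Read the other way, 67 of the 212 chromosome 19 regions of both days without LSD1+8a and SVIL (31.6%, 25.4 to 38.3) were missing from the knockdown list, the lowest share but for chromosome Y with 2 regions. The other chromosomes ran from 50.6% (42.8 to 58.4) on chromosome 16 to 68.1% (61.7 to 74.1) on chromosome 13. Chromosome 19 regions were stronger at day 0, with a median score of 138 against 76.3 to 100.5 on the other autosomes and X. Regions of all chromosomes at the same day 0 score deciles gave 42.3% for chromosome 19 and 60.1% for chromosome 16, and both lay above the interval of the chromosome itself. On every other chromosome the value at the same score lay inside the interval. The intervals of the 24 chromosomes are not adjusted for their number.

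**Figure D4:**
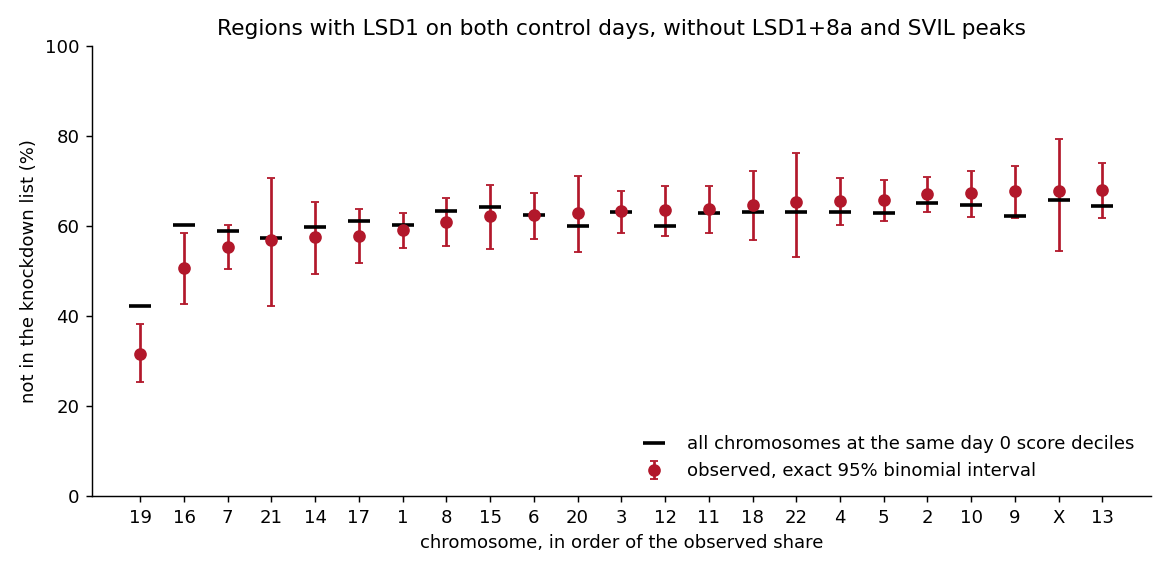
Share of regions of both control days, without LSD1+8a and SVIL peaks, that are missing from the knockdown list (vertical axis, percent) by chromosome, with exact 95% binomial intervals, and the value of all chromosomes at the same day 0 score deciles (black dashes). Chromosome 19 at 31.6% and chromosome 16 at 50.6% lie below their dashes, at 42.3% and 60.1%; chromosome Y with 2 regions is not drawn.

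Of the 212 chromosome 19 regions, 111 were in the strongest day 0 quintile. There, 9 of 111 (8.11%, 3.77 to 14.8) were missing from the knockdown list, against 345 of 1192 elsewhere (28.9%, 26.4 to 31.6). Within that quintile the chromosome 19 regions still had the higher median score, 227 against 174, and the median number of tags was 52 against 46, so the match on score is coarse there. In quintile 3 the shares were 22 of 31 (71.0%, 52.0 to 85.8) and 66.0% (63.3 to 68.6), and in quintile 4 20 of 43 (46.5%, 31.2 to 62.3) and 56.6% (53.8 to 59.4). In the weakest quintile they were 10 of 15 (66.7%, 38.4 to 88.2) and 81.8% (79.6 to 83.9), and in quintile 2 6 of 12 (50.0%, 21.1 to 78.9) and 77.2% (74.8 to 79.5). The chromosome 19 share was thus the lower one in 4 of the 5 quintiles, and the intervals of quintiles 1 to 4, which rest on few chromosome 19 regions, overlapped. The 67 chromosome 19 regions themselves had 10 to 87 tags at day 0 (median 24) and 19 to 147 at day 3 (median 38), against medians of 23 and 59 over all 4014.

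Distance to the nearest knockdown peak was not used by the rule beyond overlap. A knockdown peak lay within 1 kb of 68 of the 4014 regions (1.69%, 1.32 to 2.14), against 2.26% of all regions outside the knockdown list. Within 10 kb it was 492 (12.3%, 11.3 to 13.3), against 11.8%, and within 100 kb 2347 (58.5%), against 57.1%. The shares at 10 and 100 kb had the background inside their intervals, and the share at 1 kb lay below it. The share at 10 kb moved with limits that also cut the knockdown list and with how peaks were joined. It was 5.14% with the upper 50% of each list and 6.76% with the lowest SVIL score as limit for all lists. With the upper 50% of the control lists alone and the knockdown list whole, chosen after seeing the data, it was 12.2%. It was 17.1% where 50% of each joined peak had to be covered by the other. In that setting a region can overlap a knockdown peak without being joined to it, and such overlap counts as within 10 kb. The background was not recomputed under these settings. The median distance was 75898 bp, between 62054 bp for regions of control day 0 alone and 90583 bp for those of day 3 alone.

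**Figure D5:**
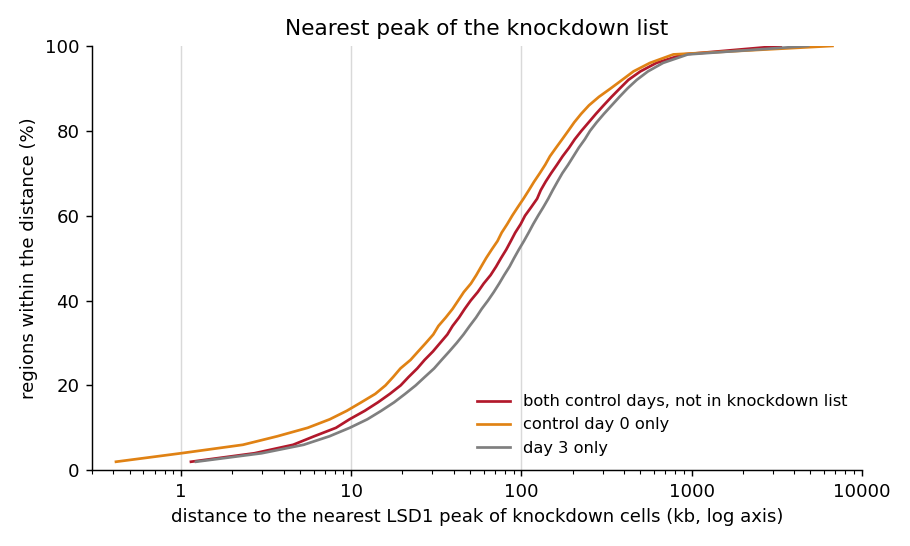
Cumulative share of regions (vertical axis, percent) by distance to the nearest LSD1 peak of knockdown cells (horizontal axis, kb, log scale). The regions of both control days (red) reach 12.3% at 10 kb and 58.5% at 100 kb and run between those of control day 0 alone (orange) and of day 3 alone (grey).

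At the limit of the rule, the region nearest to a knockdown peak was on chromosome 16 (22309266 to 22310176), 11 bp from a knockdown peak of 36 tags and score 51.9. The next, on chromosome 15 (83874296 to 83875238), lay 30 bp from one of 19 tags. On the other side, the region of both days with the shortest knockdown overlap, 76 bp, was on chromosome 1 (26560352 to 26562048), with 17 tags at day 0 and 27 at day 3. For the pair of control days, the shortest overlap was 4 bp, on chromosome 13 (74880004 to 74881229), with 12 tags at day 0 and 27 at day 3.

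The shares of these regions near an LSD1+8a peak of day 3 lay slightly below those of all regions at 10 and 100 kb. For SVIL peaks of day 3, the share at 10 kb lay slightly above that of all regions. At the other distances the background was inside the intervals. An LSD1+8a peak lay within 1 kb of 18 (0.448%, 0.266 to 0.708), against 0.684% of all regions outside the LSD1+8a list, and within 10 kb of 145 (3.61%, 3.06 to 4.24), against 4.29%. For the regions in all 3 LSD1 lists it was 139 of 2498 (5.56%, 4.70 to 6.54), an interval that did not meet the former. Within 100 kb the shares were 27.3% (25.9 to 28.7), 29.7% and 33.9% (32.0 to 35.8) in that order. A SVIL peak lay within 1 kb of 10 (0.249%, 0.120 to 0.458), against 0.338% of all regions outside the SVIL list. Within 10 kb it was 111 (2.77%, 2.28 to 3.32), against 2.26% and 3.56% (2.87 to 4.36) for the regions in all 3 lists, and within 100 kb 599 (14.9%), against 14.8%. The nearest LSD1+8a peak without overlap belonged to a region on chromosome 19 (47133723 to 47135306), which had a SVIL peak 381 bp away.

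The distance to the nearest region was close to that of the regions in all 3 LSD1 lists. The nearest region of any kind lay a median of 13856 bp away (12977 to 14683), against 13968 bp (12627 to 15107) for the regions in all 3 LSD1 lists. No other region lay within 100 kb of 261 (6.50%, 5.76 to 7.31), against 7.28% of all regions. In runs with gaps of at most 25 kb between regions of the same kind, 707 of the 4014 (17.6%) had at least 1 neighbour. The share was 13.7% for the 2498 regions in all 3 lists, 19.5% for the 4788 of day 0 alone and 33.9% for the 10795 of day 3 alone. Runs of 5 or more numbered 1, 0, 6 and 22 for the set and these kinds in that order. The shares rose with the number of regions of a kind, and the part of that number was not tested. The 1 run of the set had 6 regions, on chromosome 10 (72982896 to 73039596, 56.7 kb).

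That run had regions in the knockdown list side by side with regions missing from that list. It held 12 regions in all, of which 6 belonged to the set, 2 were in all 3 LSD1 lists, 3 were of day 3 alone and 1 was of day 0 alone. The strongest of the 6 (73014765 to 73017371) had 75 tags and a score of 230 at day 0 and 129 tags at day 3. Close by, a region that was in the knockdown list (73000128 to 73002182) had fewer day 0 tags, 54, at a lower score of 180, and 64 tags in the knockdown library. The other 5 of the set had 21 to 33 tags at day 0 and 41 to 120 at day 3. The other region in the knockdown list (72993186 to 72995831) had 35 tags at day 0 and 24 in the knockdown library.

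Over windows of 1 Mb, 1814 of the 2670 windows with any region held at least 1 of the set (67.9%), and 133 held 5 or more. The most was 10, in the windows from 168 to 169 Mb of chromosome 5, 97 to 98 Mb of chromosome 9 and 55 to 56 Mb of chromosome 17. These windows also had 9, 8 and 12 knockdown peaks. Another 7 windows held 9, among them 210 to 211 Mb of chromosome 1 and 41 to 42 Mb of chromosome 8, where 9 of 10 regions of both days without LSD1+8a and SVIL (interval 55.5 to 99.7%) were missing from the knockdown list. In these 2 windows 1 such region each was in the knockdown list.

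Of the 1814 windows with a region of the set, 161 (8.88%, 7.61 to 10.3) had no knockdown peak at all. The same share over all 2670 windows with any region was not computed, so 8.88% stands without a background. In 1 such window on chromosome 11, which holds positions 128048518 to 128486729, there were 12 day 0 and 20 day 3 peaks of control cells. All 9 regions of both days without LSD1+8a and SVIL there were missing from the knockdown list, which follows from its lack of peaks in the window. Of 97 windows with 8 or more such regions, this was the 1 with all of them missing. Its 9 regions had 20 to 36 tags at day 0 and 41 to 111 at day 3. The first by day 0 score (128270143 to 128271419) had 36 tags at rank 1999, and 61 tags at rank 18468 at day 3. The first by day 3 score (128105439 to 128106548) had 98 tags at rank 776, and 24 tags at rank 11659 at day 0. The nearest knockdown peak to any of the 9 was 940606 bp away.

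That window was part of the stretch between neighbouring knockdown peaks with the most regions of the set. It ran over 3.29 Mb of chromosome 11 (126139233 to 129427335) and held 11, beside 7 regions of day 0 alone and 31 of day 3 alone. A stretch of 2.40 Mb on chromosome 5 (65446013 to 67850494) held 10, beside 2 and 21. On chromosome 1, 8 lay within 0.633 Mb (210111813 to 210744831), which included the best ranked region named above, with 4 SVIL peaks and no LSD1+8a peak. On chromosome 9, 8 lay within 1.56 Mb (84764850 to 86322480). Most stretches were not of this kind: of 2551 stretches between knockdown peaks with a region of the set, 1677 held 1 and 55 held 5 or more, and the median stretch was 0.331 Mb.

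In some windows each region of both days without LSD1+8a and SVIL overlapped a knockdown peak. Between 37 and 38 Mb of chromosome 19 none of 11 regions of both days without LSD1+8a and SVIL was missing from the knockdown list (0 to 28.5%). From 7 to 8 Mb of chromosome 17 it was none of 9 (0 to 33.6%), and from 104 to 105 Mb of chromosome 14 none of 8 (0 to 36.9%). The knockdown list had 21, 29 and 14 peaks in these windows, against 21, 28 and 15 day 0 peaks of control cells. These windows and stretches were chosen for their counts, which are given as descriptions.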

How the data were processed

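The series has 23 samples, 14 of them ChIP and 9 input. Peak lists of 5 ChIP samples were used, 1 library each, and the other samples were not analysed here. The submitters' processing notes name CASAVA, Bowtie 1.0.0, hg19 and mm9. Because the lists contain chromosomes that mouse lacks, their positions were read as hg19. Reads were of 50 bp, per the labels' protocols. Peaks were called per sample; the peak caller, its threshold, the inputs behind each list and its depth were not given in the sources used. The deposited tags per peak are whole-number counts without normalization. The deposited fold enrichment is a ratio by the authors' caller, and the deposited score lost its column name and is used without a unit, to rank and split peaks. Scores and folds are the authors' values.

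Lists were matched to samples by the sample titles. A region's tags, score, fold and summit for a list are those of its highest scoring peak there. Deciles and quintiles were formed over the regions of both control days without LSD1+8a and SVIL. Values at the same score weight the share in each decile of day 0 score by a chromosome's own deciles. Named regions are the 25 with the best worse rank over both control lists, runs of at least 5 with gaps of at most 25 kb, the 1 Mb windows with the most, and those at the rule's limits; others were chosen after their values were seen, as were the deciles, the stretches and the windows of low share. The members and lists were chosen with earlier results of these data known. Planned motif shares and gene lists were not run, since an hg19 genome and its annotation were not used. Code was checked on simulated peaks. Python 3.11.15, pandas 2.3.3, numpy 2.4.6, SciPy 1.17.1 and matplotlib 3.10.9 were used.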

Additional observations from a re-analysis of the deposited data

How the results depend on the processing

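The 7 values tested on alternatives are the number of regions, their share of regions of both days, the chromosome 19 share, the share within 10 kb of a knockdown peak, the median summit distance and the median score percentiles at day 0 and day 3. As reported they are 4014, 48.5%, 1.67%, 12.3%, 71 bp, 43.2 and 59.8. Leaving out chromosome Y moved none beyond its interval. Joining peaks where 50% of each was covered by the other moved the share of regions of both days to 51.0%. The share within 10 kb, which here counts knockdown peaks that overlap without being joined, moved to 17.1%. The day 0 percentile moved to 47.9, and 3286 of the 4014 regions were found again. Joining peaks with edges at most 1 kb apart gave 10.3% within 10 kb and a summit distance of 76.5 bp. Keeping peaks whose fold reached 1.5 times their list's minimum gave a share of 49.9%. The upper 50% of each list by score gave 1751 regions, with 1087 of the 4014 found again, and 54.4%, 1.26%, 5.14%, 65 bp, 71.2 and 81.1. The lowest SVIL score applied to all lists gave 2396 regions, with 1702 of the 4014 found again, and 53.3%, 6.76%, 67 bp, 65.6 and 75.5. An alternative chosen after seeing the data took the upper 50% of both control LSD1 lists with the other lists whole. It gave 1089 regions, 33.8%, 0.826%, 12.2% within 10 kb, 65 bp, 69.1 and 78.9. A higher score limit raises the score percentiles by construction; a limit on the knockdown list also adds regions whose knockdown peak falls below it. The planned change of motif window was not run. No paired analysis was possible because each group is 1 library. Unknown depth limits every absence from a list.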
